A study of Mus musculus with 10 samples.

Results

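The translation initiation factor genes described here are the 48 genes whose symbol begins with Eif and a digit in a deposited table of 13809 genes, leaving out the kinases of eIF2 (symbols beginning with Eif2ak) and the Eif2s3 genes of the sex chromosomes. All 48 passed the filter on low values, a level of 10 or more in at least 2 libraries. The RNA came from marrow macrophages of C57BL/6 mice, 12 weeks old. The 3 LPS-treated and 3 untreated resident libraries, labelled CD163+, came from ferromagnetic cells that a magnetic column held back without any staining. The 2 LPS-treated and 2 untreated libraries of bone marrow derived macrophages (BMDM), labelled CD163-, came from cells of the column's flow-through, cultured in medium with 20% supernatant of L929 cells (a source of macrophage growth factor) and 10% serum. The titles put that culture at 7 days, whereas the growth protocol has 6 days. LPS, the lipopolysaccharide of the outer membrane of bacteria that Toll-like receptor 4 senses, was given at 1 µg/ml for 4 h. The labels do not say whether replicates came from separate animals or cultures, so the tests measure the spread between these libraries, which may be technical.

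Initiation factors bring the small ribosomal subunit, the initiator tRNA and the mRNA together and then release the ribosome into elongation. eIF1, eIF1A, eIF2 and eIF5 select the start codon, eIF2B recharges eIF2 with GTP, eIF3 is a large scaffold on the small subunit, and the eIF4 factors bind the mRNA cap and unwind the leader, while the eIF4E-binding proteins (4E-BP) hold the cap-binding factor eIF4E back until mTOR phosphorylates them. In macrophages, Toll-like receptor signalling is known to reach these factors through the mTOR and MNK kinases and through PKR, a kinase of eIF2. The values below are transcript levels and say nothing of phosphorylation or protein.

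Values are given in normalized reads, which are gene reads divided by 1 factor per library. Depth was 27.1 to 37.7 M recovered reads for a library. The normalized values summed to 38.6 to 38.8 M in LPS-treated BMDM and 24.7 to 26.0 M in untreated BMDM, with 29.9 to 32.4 M in LPS-treated and 26.5 to 31.0 M in untreated resident libraries. The 48 genes together took 0.873% to 0.878% of the values in LPS-treated and 0.905% to 0.920% in untreated resident libraries, and 0.673% to 0.674% in LPS-treated and 0.788% to 0.827% in untreated BMDM. Because the totals differ, each comparison below was also made with quantile normalization and with equal library totals. Cd163, the gene of the labels, had 6476, 4131 and 4918 in LPS-treated and 10740.4, 5282 and 6487 in untreated resident libraries, against 14.4 and 14.9 in LPS-treated and 41.9 and 53.9 in untreated BMDM. The Y-linked gene Ddx3y was read in replicate 1 of the LPS-treated (1975) and of the untreated resident group (1856) and in no other library. Rn45s, a ribosomal RNA precursor, took 4.70% of untreated BMDM replicate 2 and at most 1.34% of any other library.

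The levels of the 48 genes, taken per kilobase of the longest coding transcript in the GENCODE annotation of GRCm38, spread widely. In untreated resident libraries Eif4a1, the RNA helicase of the cap complex, stood at 14557 ± 1161, Eif1 at 14269.8 ± 2458 and Eif5a at 13186 ± 774 normalized reads per kilobase (mean ± SD, n = 3), which do not differ beyond their spread. Eif5a2, the second gene for the hypusine-bearing factor eIF5A, was the lowest of the 48 at 17.8 ± 2.46. In untreated BMDM the same genes stood at 14858 ± 173 (Eif4a1), 6829 ± 435 (Eif1), 12000.1 ± 563 (Eif5a) and 85.8 ± 2.86 per kilobase (Eif5a2, n = 2 each). The 5 genes of eIF2B lay low in both, between 74.5 (Eif2b3) and 882 (Eif2b2) per kilobase in untreated resident and between 102 (Eif2b3) and 629 (Eif2b2) in untreated BMDM.

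Some of these counts may mix genes. Of the 50-base words in the longest transcript, 90.8% of those of Eif3j2 also occur in Eif3j1, 65.3% of those of Eif4a1 occur in other transcripts, chiefly the pseudogene Eif4a-ps4, and 65.5% of those of Eif4ebp3 occur in an overlapping gene, AC115631.1. The share in other transcripts was 39.8% for Eif3j1, 37.3% for Eif3m, 31.6% for Eif1, 26.2% for Eif3h, 24.4% for Eif4a3 and 22.0% for Eif3e. It was 27.8% for Eif2s2 (pseudogene Gm9892) and 12.3% for Eif4e3 (overlapping gene Gm20696). Lower shares were 4.05% for Eif1a, 1.65% for Eif6, 0.352% for Eif4g2 and 0 for Eif4ebp2. Exons of Eif3d (43.3%) and Eif5b (16.9%) overlap genes of the opposite strand, and whether reads were counted by strand is not given in the sources used here. How reads shared between such genes were assigned is not stated, so values of these genes are uncertain to that extent.

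The start regions of 4 genes are shown because they bear on the cap complex and on the origin of the cells: Eif4e and Eif4a1 moved in opposite directions in BMDM, Eif4ebp2 fell there by more than any other of the 48, and Eif5a2 differed most between the origins. Each line gives the 200 bases before the annotated start from RefSeq (GRCm38.p6), 5′ to 3′ on the gene's strand, with the E-box letters CACGTG, a site that MYC, USF and TFEB proteins are known to bind, in capitals.
Eif4e (from the second of its annotated starts), chr3:138527068-138527267, plus strand: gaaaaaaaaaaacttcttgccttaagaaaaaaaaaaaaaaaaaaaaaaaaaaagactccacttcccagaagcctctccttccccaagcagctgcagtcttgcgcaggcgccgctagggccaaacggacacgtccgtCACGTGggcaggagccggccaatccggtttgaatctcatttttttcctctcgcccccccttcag
Eif4a1, chr11:69672424-69672623, minus strand: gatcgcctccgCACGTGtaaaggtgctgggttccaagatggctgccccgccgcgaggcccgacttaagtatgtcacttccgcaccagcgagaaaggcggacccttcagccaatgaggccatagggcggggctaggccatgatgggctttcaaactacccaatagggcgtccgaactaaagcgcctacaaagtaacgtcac
Eif4ebp2, chr10:61452670-61452869, minus strand: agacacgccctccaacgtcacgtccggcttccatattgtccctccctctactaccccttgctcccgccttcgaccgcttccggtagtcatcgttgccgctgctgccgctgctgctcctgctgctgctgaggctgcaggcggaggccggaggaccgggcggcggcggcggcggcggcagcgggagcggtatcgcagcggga
Eif5a2, chr3:28781077-28781276, plus strand: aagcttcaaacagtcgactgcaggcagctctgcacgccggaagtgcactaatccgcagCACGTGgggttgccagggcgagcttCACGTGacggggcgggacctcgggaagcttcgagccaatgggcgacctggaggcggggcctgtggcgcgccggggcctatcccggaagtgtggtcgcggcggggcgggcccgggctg
RefSeq held 49 such windows for 37 of the 48 genes. None was held for Eif1a, Eif4e3, Eif4g2 or Eif6, the genes with the largest rises in LPS-treated BMDM, or for Eif4ebp1. The letters and patterns given here were therefore not searched in those genes. The E-box reads the same on both strands and was found in at least 1 window of 9 of the 37 (Eif1b, Eif3f, Eif3k, Eif4a1, Eif4e, Eif4g1, Eif4h, Eif5a and Eif5a2), against 1622 of 27025 genes with a window (6%), and the base composition of these sets was not matched. Eif5a2 held 2 copies, and Eif4ebp2 held none. On the deposited scale the genes with the letters moved in both directions in BMDM. After LPS, Eif4e, Eif4g1, Eif4h and Eif5a were called higher and Eif1b and Eif4a1 lower. Eif3f, Eif3k and Eif5a2 were not called. With quantile normalization Eif4e stood at 0.14 without a call. There Eif4g1 (-0.56), Eif4h (-0.60) and Eif5a (-0.52) were negative beside Eif1b (-0.58) and Eif4a1 (-1.30). The letters TGACGTCA (cAMP response element) and TGATGNAA (ATF4) and the patterns GAAA, any 2 bases, GAAA (interferon-stimulated response element) and GGGA, any base, TTTCC (NF-kB), searched on both strands, were found in none of the 37 genes and in 1.69%, 3.25%, 2.65% and 0.329% of all genes.

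The comparison of LPS-treated with untreated BMDM asks which initiation factor transcripts move when cultured macrophages meet LPS. With the deposited scaling, Eif4e3, Eif1a, Eif6 and Eif4g2 were 2.38-fold to 2.61-fold higher after LPS, and Eif4ebp2 was 2.21-fold lower. On the deposited scale limma called 21 of the 48 genes higher and 6 lower, beside 28.3% higher and 29.5% lower among all 13755 genes tested (57.8% in either direction). Changes are log2 values ± SE from limma, and a gene was called at a Benjamini-Hochberg adjusted p under 0.05 over all genes tested. The median change of the 48 genes was 0.21, against -0.04 over all genes, and 5 of them changed at least 2-fold. Taken without sign, the median change was smaller for the 48 genes (0.33) than over all genes (0.61). LPS-treated and untreated BMDM libraries did not overlap for 39.7% (higher) and 44.7% (lower) of all genes.

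The direction of most smaller changes depended on the scaling. With quantile normalization 7 genes were called higher and 24 lower, and with equal library totals 5 were higher and 34 lower. In either direction 56.2% and 72.7% of all genes were called, and the counts by role below are to be read beside these shares. These scalings moved the median of all genes to -0.20 and -0.64, and relative to that median the members' median stood at 0.25 with the deposited scaling, -0.06 with quantile normalization and 0.23 with equal totals. Called in the same direction under the deposited scaling, recomputed median-ratio factors, quantile normalization and equal totals were the rises of Eif1a, Eif4e3, Eif4g2 and Eif6 and the falls of Eif1b, Eif4a1, Eif4a2, Eif4b and Eif4ebp2. The other 17 rises on the deposited scale lost the call or the direction in at least 1 of these scalings. The rises of Eif1a, Eif4e3, Eif4g2 and Eif6 shrank to 0.66, 1.34, 0.30 and 0.66 with quantile normalization. With equal totals they stood at 0.76, 0.77, 0.64 and 0.75. The fall of Eif4ebp2 stood at -1.06 with quantile normalization and -1.75 with equal totals.

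**Figure D1:**
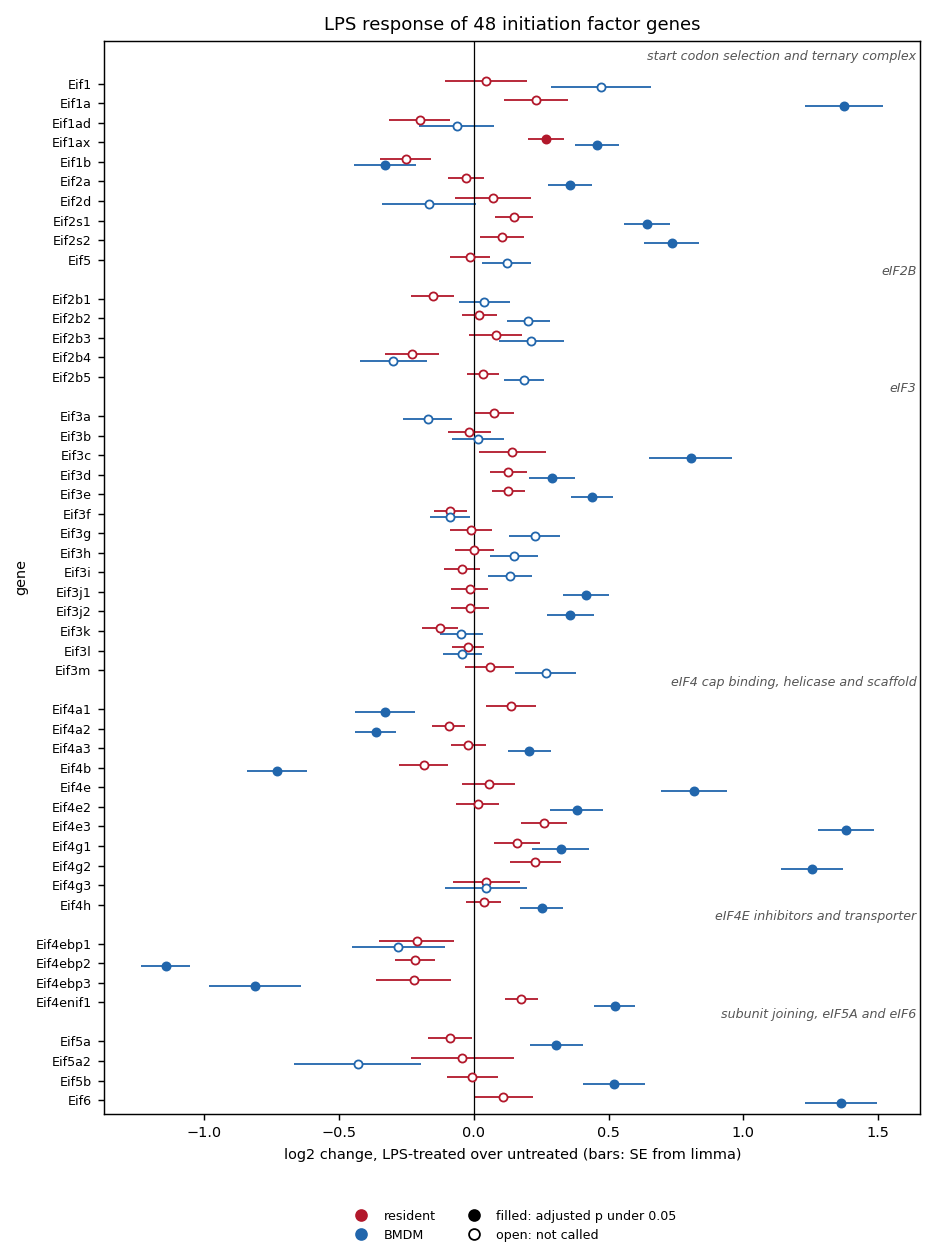
Log2 change of each of the 48 genes, LPS-treated over untreated, with the deposited scaling, in resident cells (red) and BMDM (blue). Points are limma estimates, bars their SE, and filled points were called. In BMDM the points run from -1.14 (Eif4ebp2) to 1.38 (Eif4e3), while in resident cells they stay between -0.25 and 0.27 and 1 of the 48 is filled. Many of the smaller BMDM changes turn their sign under other scalings of the libraries.

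**Figure D2:**
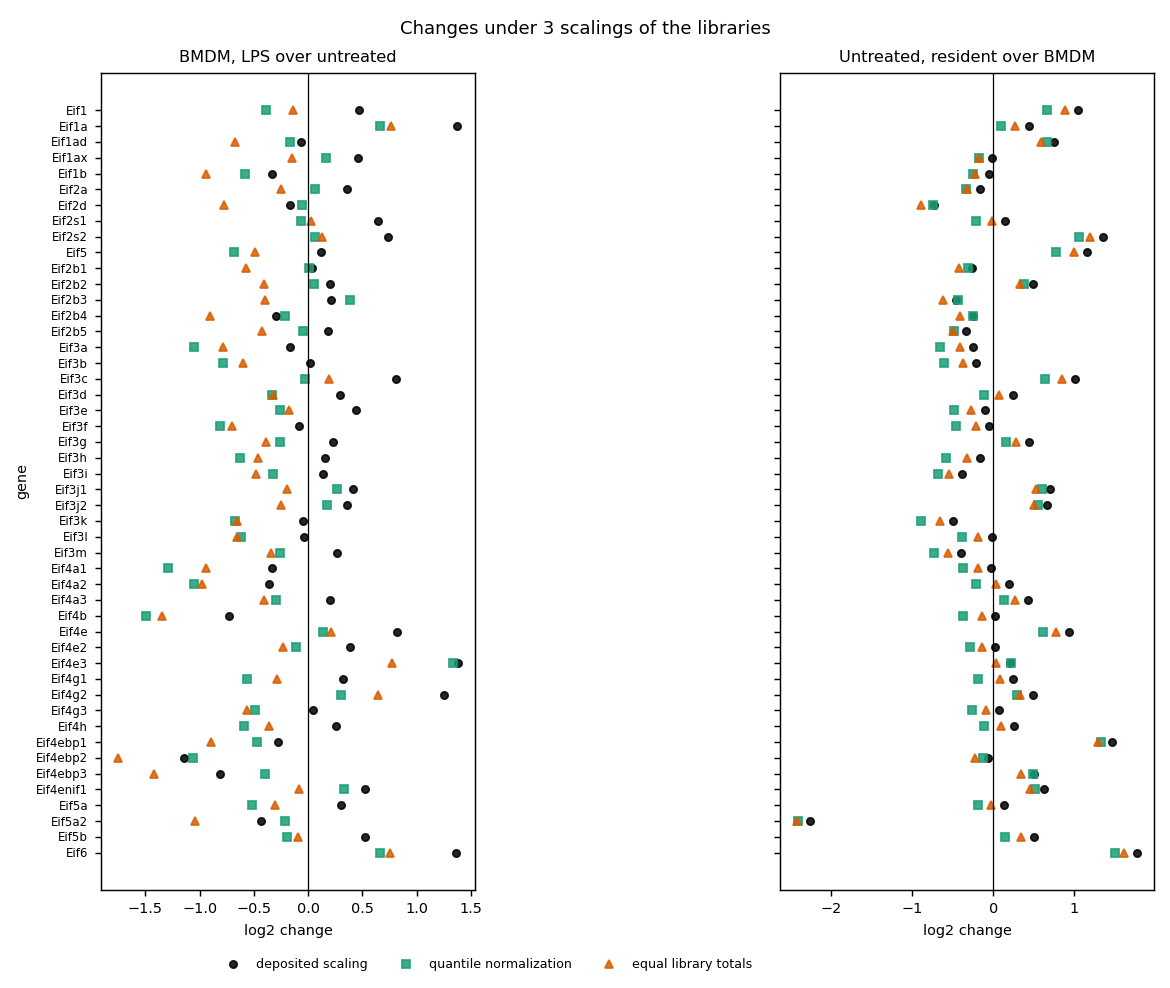
Log2 change of each gene under 3 scalings, the deposited one (black circles), quantile normalization (green squares) and equal library totals (orange triangles), for LPS over untreated in BMDM and for resident over BMDM in untreated cells. In BMDM 21, 7 and 5 genes were called higher with these scalings and 6, 24 and 34 lower. Of all genes 57.8%, 56.2% and 72.7% were called there in either direction. Points on opposite sides of 0 in 1 row mark genes whose direction depends on the scaling.

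Among the 10 genes of start codon selection and the ternary complex, 5 were higher and 1 was lower in LPS-treated BMDM, but with equal totals 1 was higher and 5 were lower. Eif1a (chr18:46597701-46616456 of mm10, plus strand), one of the genes for eIF1A, which helps the small subunit scan the leader, had 7573 and 7371 normalized reads in LPS-treated BMDM, against 2833 and 2932 in untreated BMDM. Its change was 1.37 ± 0.15 (adjusted p = 1.77e-05), and the 2 LPS-treated libraries lay far above the untreated ones. Its X-linked copy Eif1ax rose by 0.46 ± 0.08 on the deposited scale and stood at -0.15 with equal totals. Eif2s2, the beta subunit of eIF2, had 4991 and 5015 in LPS-treated BMDM, against 2976 and 3036 in untreated BMDM, a change of 0.73 ± 0.10 that fell short of a call with quantile normalization (0.058) and equal totals (0.12). Eif2s1, the alpha subunit that the stress kinases phosphorylate, changed by 0.64 ± 0.09, or -0.062 with quantile normalization. Eif2a, an alternative carrier of the initiator tRNA, changed by 0.36 ± 0.08, or -0.25 with equal totals. Eif1b, a second gene for eIF1, fell to 1295 and 1272 in LPS-treated BMDM, against 1589 and 1639 in untreated BMDM (-0.33 ± 0.11, adjusted p = 0.0305). The groups did not overlap, but the call of Eif1b was lost without any one of the 4 BMDM libraries. Its change over the 10 fits that each leave out 1 library was -0.35 to -0.31, and the ranges in brackets beside other lost calls are of the same kind. Eif1 itself stood at 0.47 ± 0.19 and was not called (adjusted p = 0.051), though 10 of 23 other settings called it higher, among them median-ratio factors and voom, and it stood at -0.39 under quantile normalization. Eif5, which makes eIF2 hydrolyse its GTP, stood at 0.12 ± 0.09, or -0.69 and -0.49 with quantile normalization and equal totals.

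None of the 5 genes of eIF2B was called by limma in BMDM with the deposited scaling, although 3 had an unadjusted p under 0.05 and voom on recovered reads called 1. Of 23 other settings, 8 called Eif2b2 higher and 8 called Eif2b5 higher, median-ratio factors among them in both cases, and 6 called Eif2b4 lower. Eif2b2 stood at 0.20 ± 0.08 (adjusted p = 0.0508), Eif2b5 at 0.19 ± 0.07 and Eif2b4 at -0.30 ± 0.12, and all 5 were called lower with equal totals. Of the 14 genes of eIF3, 5 were called higher and none lower on the deposited scale, but with equal totals none was higher and 11 were lower, and with quantile normalization 1 was higher and 11 lower. Eif3c, which encodes a core subunit that contacts eIF1, had 10817 and 11579 in LPS-treated BMDM, against 6559 and 6262 in untreated BMDM, a change of 0.80 ± 0.15 on the deposited scale and of -0.026 with quantile normalization. Eif3e (0.44), Eif3j1 (0.42), Eif3j2 (0.36) and Eif3d (0.29) were the other eIF3 genes called, and each turned negative with equal totals. The call of Eif3d was lost without LPS-treated replicate 1 or 2 or untreated replicate 2 (0.25 to 0.33), and that of Eif3j2 without untreated replicate 1 (0.29 to 0.43). The uncalled eIF3 genes lay between -0.17 (Eif3a) and 0.27 (Eif3m).

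Within the 11 cap-binding, helicase and scaffold genes of eIF4, 7 were higher and 3 lower in LPS-treated BMDM, or 3 and 8 with equal totals and 2 and 7 with quantile normalization. Eif4e3 (chr6:99625135-99666771, minus strand), a relative of the cap-binding protein, had 1388 and 1384 in LPS-treated BMDM, against 542 and 520.05 in untreated BMDM (1.38 ± 0.10, adjusted p = 1.21e-06). Eif4g2 (chr7:111067750-111083030, minus strand), also known as DAP5, a scaffold that lacks the eIF4E-binding part, had 46542 and 46174, against 19205 and 19686 in untreated BMDM (1.25 ± 0.12, adjusted p = 5.86e-06). Both genes more than doubled in each LPS-treated library on the deposited scale, and both stayed called under the other scalings, at 1.34 and 0.30 with quantile normalization and at 0.77 and 0.64 with equal totals. Eif4e (chr3:138526179-138559696, plus strand), the cap-binding protein itself, had 5218 and 5086 in LPS-treated BMDM, against 2873 and 2976 in untreated BMDM. That change of 0.82 ± 0.12 (adjusted p = 0.000214) was 0.21 with equal totals and 0.14, without a call, with quantile normalization. Eif4g1, the main scaffold, changed by 0.32 ± 0.10, or -0.56 and -0.29 with quantile normalization and equal totals, and its call was lost without any one BMDM library (0.32).

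The helicase genes Eif4a1 and Eif4a2 and their cofactor Eif4b fell with each of the 4 scalings. Eif4a1 (chr11:69666936-69672423, minus strand) had 21107 and 20859 in LPS-treated BMDM, against 26576 and 26141 in untreated BMDM, a change of -0.33 ± 0.11 (adjusted p = 0.0276). Eif4a2 (chr16:23107444-23114136, plus strand), its close relative, fell to 3425 and 3735 in LPS-treated BMDM, against 4627 and 4581 in untreated BMDM (-0.36 ± 0.08, adjusted p = 0.0019). Eif4b (chr15:102073773-102097173, plus strand), which stimulates the helicase, fell to 4499.7 and 4778 in LPS-treated BMDM, against 7746 and 7647 in untreated BMDM (-0.73 ± 0.11, adjusted p = 0.000263). The LPS-treated and untreated libraries did not overlap for any of these genes, but the call of Eif4a1 was lost without any one of the 4 BMDM libraries (-0.34 to -0.32). Eif4a3, the helicase of the exon junction complex, stood at 0.20 ± 0.08 and turned to -0.41 with equal totals, and its call was lost without any one BMDM library and without replicates 2 or 3 of either resident group (0.18 to 0.23).

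Among the eIF4E inhibitors, Eif4ebp2 (chr10:61428491-61452661, minus strand) had 371 and 348 normalized reads in LPS-treated BMDM, against 821 and 770.5 in untreated BMDM. Its fall of -1.14 ± 0.09 (adjusted p = 1.83e-06) was the largest among the 48 genes and stood at -1.06 with quantile normalization and -1.75 with equal totals. Eif4ebp3 had 114 and 119 in LPS-treated BMDM, against 189.6 and 223 in untreated BMDM, a change of -0.81 ± 0.17 whose call was lost with quantile normalization (-0.40). Eif4ebp1 stood at -0.28 ± 0.17 and was not called (adjusted p = 0.19). Eif4enif1, which carries eIF4E into the nucleus, changed by 0.52 ± 0.07, or -0.088 with equal totals. Of the 4 genes acting at subunit joining and after it, Eif6 (chr2:155819832-155826925, minus strand), which keeps the large subunit from joining too early, had 7509 and 7129 in LPS-treated BMDM, against 2796 and 2897 in untreated BMDM (1.36 ± 0.13, adjusted p = 9.84e-06). Eif5b, the GTPase of subunit joining, and Eif5a rose by 0.52 and 0.31 on the deposited scale and turned to -0.092 and -0.30 with equal totals, and the call of Eif5a was lost without any one BMDM library (0.26 to 0.35). Eif5a2 stood at -0.43 ± 0.24 and was not called.

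**Figure D3:**
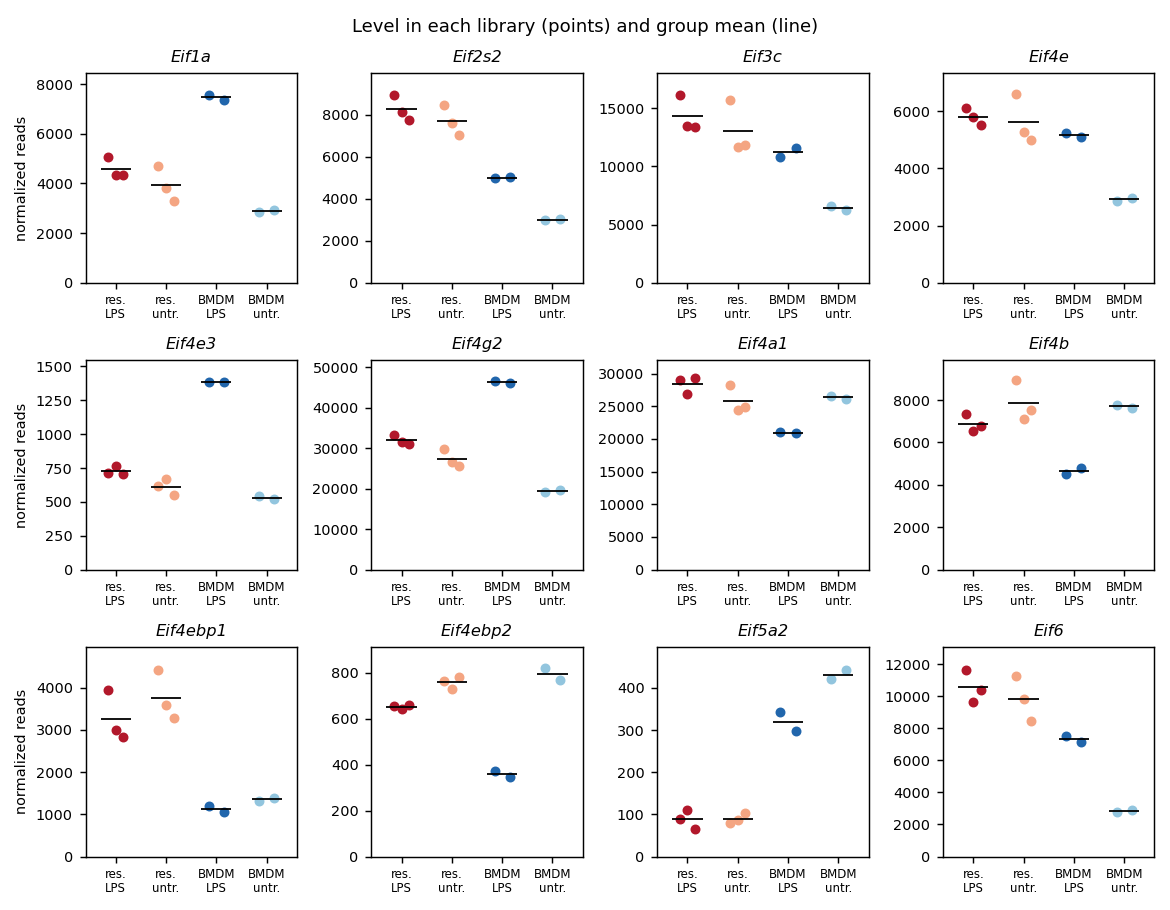
Normalized reads of 12 initiation factor genes in each library (points) with the group mean (line), from left to right LPS-treated resident, untreated resident, LPS-treated BMDM and untreated BMDM. Eif1a, Eif4e3 and Eif4g2 are highest in LPS-treated BMDM, Eif4b and Eif4ebp2 are lowest there, and Eif5a2 is low in all 6 resident libraries.

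The same comparison in resident cells asks which of these genes move in the column-retained fraction. In LPS-treated resident libraries 1 of the 48 genes, Eif1ax, was called higher and none lower, while limma called 12.9% of all genes (7.36% higher and 5.57% lower). Eif1ax (chrX:159372178-159389928, plus strand) had 1866, 1724 and 1631 in LPS-treated resident libraries, against 1453, 1442 and 1432 in untreated resident libraries, and the groups did not overlap. The change was 0.27 ± 0.07 (adjusted p = 0.0258). The call was lost in 11 of 23 other settings, among them leaving out any one library other than LPS-treated replicate 3 and untreated replicate 1 (0.22 to 0.31). The changes of the 48 genes ran from -0.25 (Eif1b) to 0.27 (Eif1ax), with a median of 0.01 against 0.00 over all genes. Taken without sign, the median change was 0.087 for the 48 genes, against 0.19 over all genes. The groups did not overlap for 13.8% (higher) and 13.3% (lower) of all genes. Of the 48 genes, 7 had an unadjusted p under 0.05.

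The genes that moved most in BMDM had small changes in resident cells. Eif4e3 had 717, 768 and 709 in LPS-treated resident libraries, against 615, 667 and 553 in untreated resident libraries, a change of 0.26 ± 0.08 with a 95% confidence interval of 0.07 to 0.45 (adjusted p = 0.0733). Eif4g2 had 33244, 31626 and 31074 in LPS-treated resident libraries, against 29864, 26591 and 25578 in untreated resident libraries, at 0.23 ± 0.09 (interval 0.02 to 0.44) on the deposited scale and -0.083 with quantile normalization. Eif1a had 5065, 4348 and 4319 in LPS-treated resident libraries, against 4696, 3821 and 3287 in untreated resident libraries (0.23 ± 0.12, interval -0.04 to 0.49). Without untreated replicate 1, which had the highest value of its group, both were called, at 0.29 (Eif4g2) and 0.37 (Eif1a). Eif4ebp2 had 658, 642 and 661 in LPS-treated resident libraries, against 766, 731 and 783 in untreated resident libraries, which did not overlap but were not called (-0.22 ± 0.07, adjusted p = 0.0839). Eif4enif1 (0.18 ± 0.06) and Eif1b (-0.25 ± 0.09) were not called either. Which genes were called depended on the scaling and on how the libraries with Ddx3y reads (replicate 1 of both groups) were treated. With a term for them, Eif1a (adjusted p = 0.0272), Eif4e3 (0.0358), Eif4enif1 (0.0357) and Eif4g2 (0.0218) were called higher beside Eif1ax, and Eif1ad (0.0277), Eif1b (0.00937), Eif4b (0.0327), Eif4ebp1 (0.0362) and Eif4ebp2 (0.0393) lower. Without those libraries, Eif1a, Eif1ax, Eif2s1, Eif4enif1, Eif4g1 and Eif4g2 were called higher and Eif1b lower. Equal library totals called Eif1ad, Eif1b, Eif3f, Eif3k, Eif4b and Eif4ebp2 lower, and quantile normalization called Eif4b lower beside Eif1ax higher.

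The main fit was not paired, so any spread shared between resident libraries of both groups was left in its tests. The count of calls in resident cells moved with the libraries used. It was 10 (5 higher and 5 lower) with a term for the libraries with Ddx3y reads, beside 25.1% of all genes. It was 7 without these libraries (20.6% of all genes) and 6 (all lower) with equal library totals (17.4%). When only the resident libraries were fitted it was 0 (3.85%). Leaving out 1 resident library gave 6 calls without untreated replicate 1, beside 16.6% of all genes. It gave 1 call without LPS-treated replicate 3 (9.30%) or untreated replicate 2 (9.79%), and 0 without any other resident library (7.05% to 12.4%). With LPS, 3 of 6 marker genes of resident marrow macrophages fell in these libraries. Their sum was 213238 to 276819 in LPS-treated and 296361 to 433405 in untreated resident libraries. Hmox1, the largest part of that sum, had 161359, 116991 and 158256, against 286950, 194797 and 216462. Vcam1 (76315, 64879 and 68689, against 88787, 63273 and 62423) and Spic overlapped between these groups. The sum of 10 neutrophil markers was 323322 to 365274 in LPS-treated and 204872 to 371710 in untreated resident libraries. The part of these shifts in the small changes above was not tested, and fewer cells of a type and less RNA per cell cannot be told apart in such samples.

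The difference of the LPS responses, resident minus BMDM, was tested as an interaction. It was called in 20 of the 48 genes, 4 higher and 16 lower, beside 41.8% of all genes (19% higher and 22.8% lower), with a median of -0.18 against 0.02 over all genes. Without sign, the median was 0.24 for the 48 genes, against 0.54 over all genes. With quantile normalization 15 of the 48 genes were higher and 5 lower, and with equal totals 24 and 5. Among all genes 39.4% and 53.8% were called with these scalings, and the median of all genes moved to 0.14 and 0.48. Called in the same direction under all 4 scalings were Eif6 (-1.25 ± 0.17), Eif1a (-1.14 ± 0.19), Eif4e3 (-1.12 ± 0.13) and Eif4g2 (-1.02 ± 0.15), whose rise in BMDM was larger than their change in resident cells, and Eif4ebp2 (0.93 ± 0.12), Eif4b (0.55 ± 0.14), Eif4a1 (0.47 ± 0.14) and Eif4a2 (0.27 ± 0.10), whose fall in BMDM was larger than their change in resident cells. These values are from the deposited scale. With quantile normalization the negative ones shrank to -0.69 (Eif6), -0.49 (Eif1a), -1.08 (Eif4e3) and -0.39 (Eif4g2). Those of Eif4b (1.17), Eif4a1 (1.18) and Eif4a2 (0.87) grew there, and Eif4ebp2 stood at 0.85. Eif6 had 11658, 9634 and 10397 in LPS-treated resident libraries, against 11267, 9796 and 8429 in untreated resident libraries, so the groups overlapped where those of BMDM did not. Eif4b had 7329, 6529 and 6762 in LPS-treated resident libraries, against 8931, 7097 and 7513 in untreated resident libraries, again with overlap and with a call for a fall in the 3 settings named above. Eif4a1 had 28952, 26906 and 29265 in LPS-treated resident libraries, against 28185, 24384 and 24904 in untreated resident libraries, and these groups overlapped too. Eif4a2 had 4787, 5009.96 and 5042 in LPS-treated resident libraries, against 5377, 5144 and 5310.5 in untreated resident libraries, without overlap and without a call (-0.09 ± 0.06). The call of Eif4b was lost without LPS-treated BMDM replicate 1 (0.48 to 0.64). That of Eif4a1 was lost without any one BMDM library or untreated resident replicate 2 (0.43 to 0.53), and that of Eif4a2 in 7 of the 10 fits without 1 library (0.21 to 0.33). For the whole family 10 to 12 calls were left without 1 of the BMDM libraries, against at most 21 without 1 resident library.

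Ratios of genes within a library do not depend on a factor per library, though quantile normalization changes them, and 4 were computed after the values were seen, as a description with no test. The ratio of Eif4e to the sum of Eif4ebp1, Eif4ebp2 and Eif4ebp3 was 3.12 and 3.36 in LPS-treated BMDM, against 1.24 and 1.25 in untreated BMDM. In resident libraries it was 1.25, 1.50 and 1.48 after LPS, against 1.20, 1.15 and 1.15 in untreated ones. The transcript of the cap-binding protein thus stood highest over those of its inhibitors in LPS-treated BMDM. Eif4g2 over Eif4g1 was 3.52 and 3.50 in LPS-treated BMDM, against 1.82 and 1.86 in untreated BMDM, and 2.38, 2.40 and 2.11 in LPS-treated resident libraries, against 2.15, 2.24 and 2.17 in untreated resident libraries. Eif4e3 over Eif4e was 0.266 and 0.272 in LPS-treated BMDM, against 0.189 and 0.175 in untreated BMDM. In resident libraries that ratio was 0.117, 0.133 and 0.129 after LPS, against 0.0933, 0.127 and 0.111 in untreated ones, all below the BMDM values. Eif6 over Eif5b was 1.49 and 1.35 in LPS-treated BMDM, against 0.772 and 0.811 in untreated BMDM, while resident libraries had 2.15, 1.97 and 2.09 after LPS, against 1.89, 2.04 and 1.81 untreated.

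**Figure D4:**
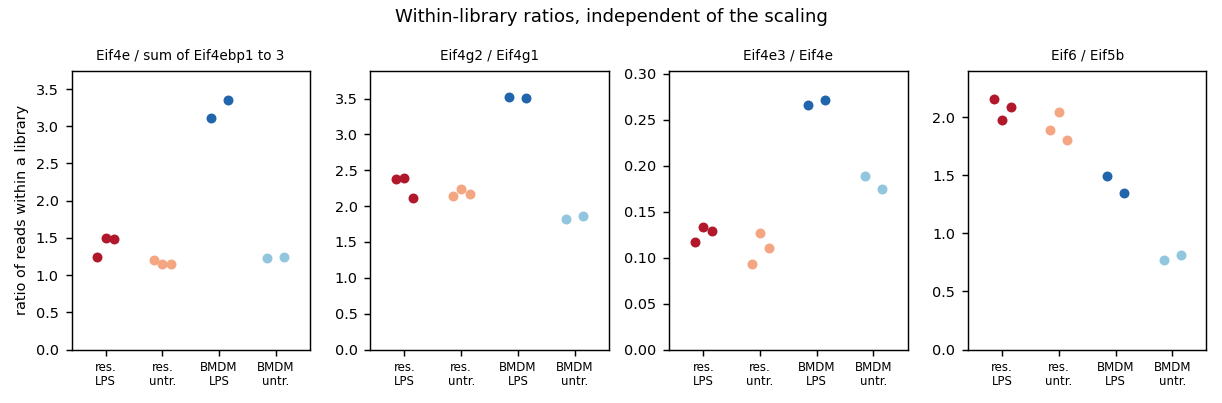
Ratios of normalized reads within each library (points), from left to right LPS-treated resident, untreated resident, LPS-treated BMDM and untreated BMDM. In BMDM the LPS-treated libraries lie above the untreated ones in all 4 panels, for example at 3.12 and 3.36 against 1.24 and 1.25 for Eif4e over the eIF4E-binding protein genes.

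The comparison of untreated resident cells with untreated BMDM asks how the origins differ before LPS. Eif6, Eif4ebp1, Eif2s2, Eif5, Eif1 and Eif3c were 2.04-fold to 3.45-fold higher in resident libraries, and Eif5a2 was 4.81-fold lower. In all, 22 of the 48 genes were called higher and 9 lower, beside 39.2% higher and 32.6% lower among all genes (71.9% in either direction), with a median of 0.14 against 0.08 over all genes. Without sign, the median difference was 0.36 for the 48 genes, against 0.77 over all genes. The groups did not overlap for 44.4% (higher) and 38.3% (lower) of all genes. With quantile normalization, which moved the median of all genes to -0.18, 14 were higher and 24 lower. With equal totals, which moved it to -0.08, 17 were higher and 18 lower. Of all genes 72.2% and 71.7% were called with these scalings, and the counts by role below are to be read beside these shares. Of the calls on the deposited scale, 13 of the 22 higher and all 9 lower ones were also made in the same direction by the 3 other scalings.

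These libraries differ in their cells as well as in the macrophages' origin. The 10 neutrophil markers summed to 204872 to 371710 in untreated resident libraries, against 1469 to 1611 in untreated BMDM, where Ly6g was at the floor of the table, and all 10 were called higher in resident libraries. The 8 erythroid markers summed to 25680 to 34412, against 61.3 to 63.3, the 6 B lineage markers to 3104 to 6497, against 147 to 165, and the 5 megakaryocyte markers to 12504 to 40707, against 1026 to 1050.2. The 5 T and NK markers summed to 179 to 407, against 61.2 to 62.1, the 3 progenitor markers to 759.8 to 1568, against 121 to 157, and the 4 dendritic markers to 388 to 519, against 125 to 132. Of the T and NK markers 4 were called higher and 1 lower, Klrb1c, with 4.46, 8.55 and 5.72, against 50.1 and 52.1. The 6 markers of resident marrow macrophages summed to 296361 to 433405, against 16120 to 17936, and 6 general macrophage markers to 54024 to 78543, against 134693 to 139978. Of the general markers 5 were called lower and 1 higher, Mertk, with 6872, 4395 and 3989, against 749 and 705. The part of these other cells in the levels of initiation factor genes was not tested.

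**Figure D5:**
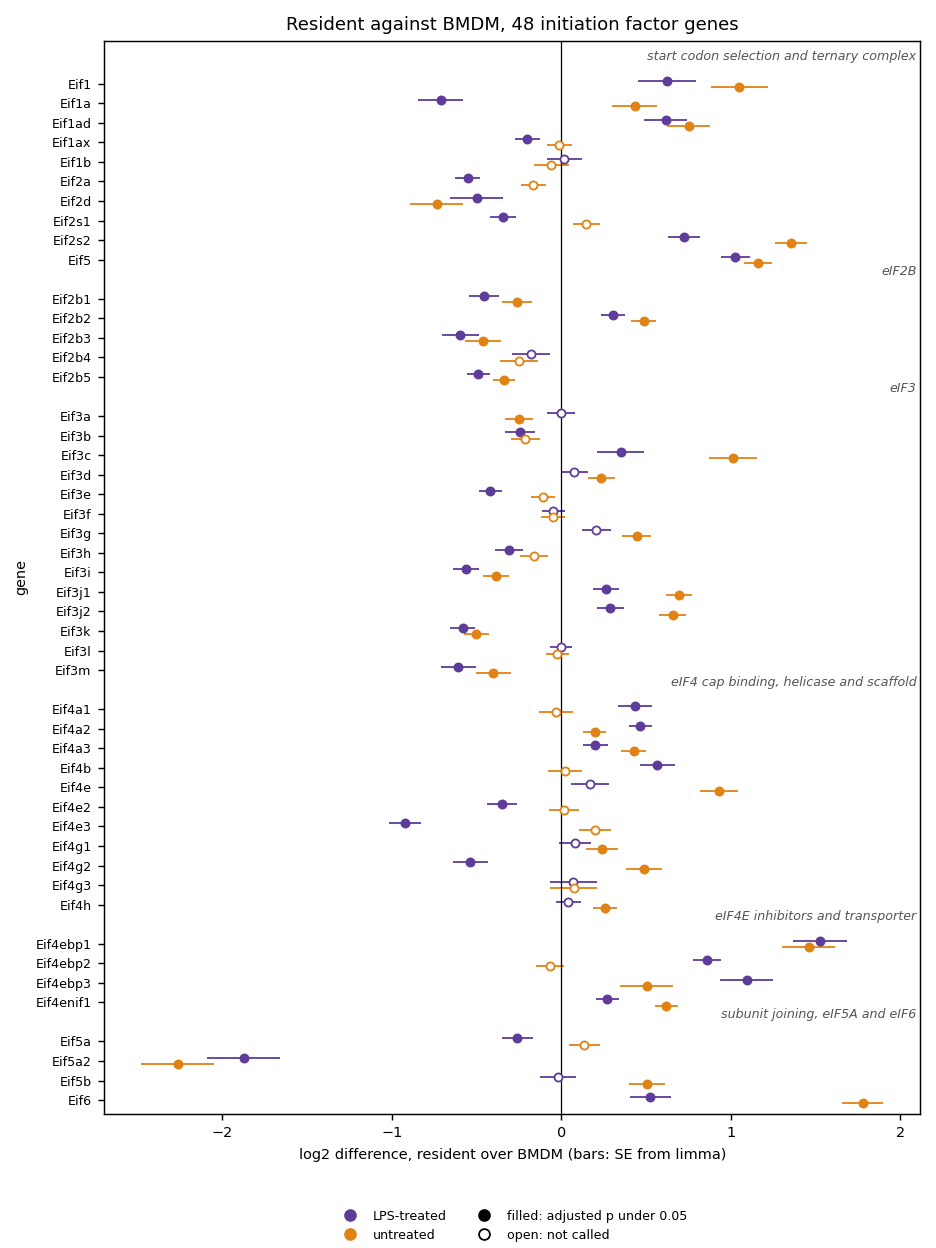
Log2 difference of each of the 48 genes, resident over BMDM, with the deposited scaling, among LPS-treated (purple) and untreated libraries (orange). Points are limma estimates, bars their SE, and filled points were called. Eif5a2 lies at -1.87 and -2.26 and Eif4ebp1 at 1.53 and 1.46, while Eif4e3, Eif1a and Eif4g2 lie below 0 among LPS-treated libraries and above 0 among untreated ones. The sign of smaller differences depends on the scaling for some genes.

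Eif6 had 11267, 9796 and 8429 in untreated resident libraries, against 2796 and 2897 in untreated BMDM (1.78 ± 0.12, adjusted p = 5.48e-07). Eif4ebp1 (chr8:27260329-27276674, plus strand), the best studied of the eIF4E inhibitors, had 4424, 3575 and 3273 in untreated resident libraries, against 1316 and 1396 in untreated BMDM (1.46 ± 0.16, adjusted p = 1.51e-05). Both genes were higher in each resident library than in either BMDM library. Eif2s2 (chr2:154871410-154892935, minus strand) had 8476, 7611 and 7037 in untreated resident libraries, against 2976 and 3036 in untreated BMDM (1.35 ± 0.09, adjusted p = 5.49e-07). Eif5 (chr12:111538016-111546752, plus strand) had 14262, 12729 and 13686 in untreated resident libraries, against 6075 and 6030.4 in untreated BMDM (1.16 ± 0.08, adjusted p = 8.19e-07). All 4 differences (Eif6, Eif4ebp1, Eif2s2 and Eif5) were also called with quantile normalization and equal totals, at 0.78 or more. Eif5a2 (chr3:28781276-28798846, plus strand) ran the other way, with 78.5, 87.4 and 103 in untreated resident libraries, against 421 and 441 in untreated BMDM (-2.26 ± 0.21, adjusted p = 5.91e-06). No resident library came near the BMDM level of Eif5a2. Eif2d, a factor that brings initiator tRNA to the ribosome outside the eIF2 route, had 276, 359 and 325 in untreated resident libraries, against 537 and 525 in untreated BMDM (-0.74 ± 0.16, adjusted p = 0.0019). Eif3k, a subunit of eIF3, had 2574, 2527 and 2468 in untreated resident libraries, against 3599 and 3541 in untreated BMDM (-0.50 ± 0.07, adjusted p = 0.000146). The gamma subunit gene of eIF2B, Eif2b3, had 273, 262 and 304 in untreated resident libraries, against 391 and 378 in untreated BMDM (-0.46 ± 0.11, adjusted p = 0.00317). All 4 were called lower under each scaling, and none had overlapping groups.

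By role, start codon genes were called higher in 5 of 10 cases and lower in 1, Eif2d, but with quantile normalization 4 were higher and 5 lower. Eif1 (1.05 ± 0.17) and Eif1ad (0.75 ± 0.13) were among the higher ones. The regulatory complex eIF2B had 3 of 5 genes lower and 1 higher: Eif2b3 (-0.46), Eif2b5 (-0.34) and Eif2b1 (-0.26) were lower, Eif2b2 was higher (0.49), and Eif2b4 stood at -0.25 ± 0.11. Those 4 calls were also made with the other scalings, but that of Eif2b1 was lost without untreated resident replicate 2 or either untreated BMDM library (-0.29 to -0.21). Within eIF3, 5 of 14 genes were higher and 4 lower, or 4 and 9 with equal totals. Eif3c (1.01 ± 0.14), Eif3j1 (0.69) and Eif3j2 (0.66) were higher, Eif3k (-0.50 ± 0.07), Eif3m (-0.40), Eif3i (-0.39) and Eif3a (-0.25) were lower, and these 7 calls were made under each scaling. The call of Eif3a was lost without untreated resident replicate 2 or either untreated BMDM library (-0.29 to -0.19). Of the 11 eIF4 genes 6 were higher and none lower, or 2 higher and 5 lower with quantile normalization. The largest of these differences was that of Eif4e, with 6595, 5273 and 4989 in untreated resident libraries, against 2873 and 2976 in untreated BMDM (0.93 ± 0.11, adjusted p = 3.12e-05). Eif4enif1 (0.62) and Eif4ebp3 (0.50) were higher too, the call of Eif4ebp3 being lost without untreated BMDM replicate 1 (0.39) and with equal totals, and Eif4e3 stood at 0.20 ± 0.09 without a call.

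Between LPS-treated resident cells and LPS-treated BMDM, 17 of the 48 genes were called higher and 19 lower, beside 36.7% higher and 34.5% lower among all genes (71.3% in either direction), with a median of 0.01 against 0.03 over all genes. Without sign, the median difference was 0.38 for the 48 genes, against 0.76 over all genes. The groups did not overlap for 42.3% (higher) and 40.2% (lower) of all genes. With quantile normalization 26 were higher and 12 lower, and with equal totals 27 and 7, where the median of all genes stood at 0.35. Of all genes 69.7% and 70.3% were called with these scalings. All 17 higher calls, but 6 of the 19 lower ones (Eif1a, Eif2a, Eif3k, Eif3m, Eif4e3 and Eif5a2), were made in the same direction under every scaling.

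The eIF4E inhibitors and the transporter formed the one role group with every gene called higher, 4 of 4, also under the other scalings. Eif4ebp1 had 3947, 2984 and 2826 in LPS-treated resident libraries, against 1189 and 1047 in LPS-treated BMDM (1.53 ± 0.16, adjusted p = 1.14e-05). Eif4ebp3 had 298, 223 and 235 in LPS-treated resident libraries, against 114 and 119 in LPS-treated BMDM (1.09 ± 0.16, adjusted p = 0.000123). Eif4ebp2 had 658, 642 and 661 in LPS-treated resident libraries, against 371 and 348 in LPS-treated BMDM (0.86 ± 0.08, adjusted p = 7.03e-06), and Eif4enif1 differed by 0.27. Among the inhibitors no resident library came down to the BMDM range. Eif5 had 13336, 12694 and 14257 in LPS-treated resident libraries, against 6411 and 6761 in LPS-treated BMDM (1.03 ± 0.08, adjusted p = 2.25e-06), and Eif2s2 differed by 0.72 ± 0.09. The helicase genes Eif4a1 (0.43), Eif4a2 (0.47) and Eif4b (0.57) were higher in resident libraries, and Eif4e stood at 0.17 ± 0.11 without a call.

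On the lower side, Eif5a2 had 89.6, 109 and 65.8 in LPS-treated resident libraries, against 342 and 298 in LPS-treated BMDM (-1.87 ± 0.21, adjusted p = 2.5e-05). Eif4e3 had 717, 768 and 709 in LPS-treated resident libraries, against 1388 and 1384 in LPS-treated BMDM (-0.92 ± 0.09, adjusted p = 1.12e-05). Eif1a had 5065, 4348 and 4319 in LPS-treated resident libraries, against 7573 and 7371 in LPS-treated BMDM (-0.71 ± 0.13, adjusted p = 0.000753). Both Eif4e3 and Eif1a also rose in BMDM after LPS. Eif3m, the M subunit of eIF3, had 2241, 1895 and 1789 in LPS-treated resident libraries, against 2871 and 3128 in LPS-treated BMDM (-0.61 ± 0.10, adjusted p = 0.00037). None of these 4 genes had overlapping groups. Eif2a (-0.55), Eif3k (-0.58), Eif3i (-0.56) and, in eIF2B, Eif2b3 (-0.59), Eif2b5 (-0.49) and Eif2b1 (-0.46) were also lower, where the calls of Eif3i and of the eIF2B genes were lost with equal totals. The markers of other cells differed here as above, with neutrophil markers at 323322 to 365274 in LPS-treated resident libraries, against 1396 to 1481 in LPS-treated BMDM.

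Genes that act on the initiation factors were followed in 6 lists, on the deposited scale. The counts are to be read beside all genes tested, of which 28.3% rose and 29.5% fell in LPS-treated BMDM (72.7% in either direction with equal totals), and 7.36% rose and 5.57% fell in resident cells. Of 12 genes around eIF2 phosphorylation, 4 rose and 3 fell in LPS-treated BMDM, or 4 and 8 with equal totals. Eif2ak2, which encodes PKR, had 16570.4 and 16969.9 in LPS-treated BMDM, against 1064 and 1067 in untreated BMDM (3.98 ± 0.10, adjusted p = 5.76e-10). In resident cells it had 8461, 9981 and 10230.4 after LPS, against 6277, 7009 and 6421 in untreated libraries (0.54 ± 0.08, adjusted p = 0.00348). The groups did not overlap in either origin. Impact, an inhibitor of the kinase GCN2, fell in BMDM (-1.73) and in resident cells (-0.71), and the resident call was lost in 10 of 23 other settings, among them leaving out any one of 8 libraries (-0.87 to -0.49). Ppp1r15a, which brings a phosphatase to eIF2, was higher in untreated resident libraries than in untreated BMDM (3.36 ± 0.16).

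Of 18 genes of mTOR and MNK signalling, 3 rose and 10 fell in LPS-treated BMDM, and none rose and 15 fell with equal totals. Sesn1, an inhibitor of mTOR complex 1, had 112 and 125 in LPS-treated BMDM, against 2283 and 2117 in untreated BMDM (-4.21 ± 0.14). Mknk2, a kinase of eIF4E, had the largest fall of this list in resident cells, with 3782, 3653 and 3800.1 in LPS-treated resident libraries, against 7169, 5585 and 6354 in untreated resident libraries (-0.76 ± 0.09, adjusted p = 0.000672). Its fall was larger in BMDM, to 586 and 599 after LPS, against 7664 and 7730 in untreated BMDM. Between the untreated origins, 5 of the 18 were higher in resident libraries, led by Ddit4 (3.01), and 7 lower, led by Deptor (-3.07), both mTOR inhibitors. Of 14 cap and poly(A) partners, 7 rose and 3 fell in LPS-treated BMDM, or 4 and 8 with equal totals. Larp1, which binds mRNAs of the translation machinery, had 16418 and 16182 in LPS-treated BMDM, against 3072 and 3150.4 in untreated BMDM (2.39 ± 0.09), and Pdcd4, an inhibitor of the Eif4a1 helicase, had 76.1 and 43.3, against 432 and 498 (-2.99 ± 0.30). In resident cells 4 of the 14 rose and none fell, with Fmr1, a repressor of translation, at 0.48 ± 0.06, though 2 rose and 2 fell with equal totals. Fmr1 rose more in BMDM, with 3102 and 3198 after LPS, against 801 and 805 in untreated BMDM.

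Of 6 genes of recycling and re-initiation, 3 rose in LPS-treated BMDM, or 1 rose and 2 fell with equal totals, with Denr at 2.19 ± 0.19. Of 10 elongation and release factors, 3 rose and 3 fell there, or 1 rose and 7 fell with equal totals. Gspt1, a release factor, rose by 1.28 ± 0.11, and Eef2k, the kinase that inhibits elongation factor 2, fell by 1.76 ± 0.14. Of the 4 genes that make hypusine and its precursor for eIF5A, Odc1 rose (1.10) and Srm fell (-1.26) in BMDM, where Odc1 was not called with quantile normalization. In resident cells 1 gene of these 3 lists was called, Gspt1 (0.33 ± 0.09), a call lost in 12 of 23 other settings, among them leaving out any one of 8 libraries (0.26 to 0.39).

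Among all genes 39.2% were higher and 32.6% lower in untreated resident libraries than in untreated BMDM, and 36.7% and 34.5% in LPS-treated ones (70.3% in either direction with equal totals). Against that background, 7 of the 12 genes around eIF2 phosphorylation were higher and none lower in untreated resident libraries than in untreated BMDM, and 6 were higher and 3 lower after LPS. Of the 18 genes of mTOR and MNK signalling, 11 were higher and 5 lower in LPS-treated resident libraries than in LPS-treated BMDM. The cap and poly(A) partners had 6 higher and 1 lower of 14 among untreated and 5 higher and 4 lower among LPS-treated libraries, where Pdcd4 differed by 2.51 ± 0.27. For recycling and re-initiation 3 of 6 were higher and 2 lower among untreated libraries, and 2 were higher and 2 lower after LPS. Of the 10 elongation and release factors 3 were higher and 2 lower among untreated libraries, and 2 were higher and 2 lower after LPS, with Eef2k at 1.85 ± 0.13 and, after LPS, at 3.26 ± 0.13. The 4 hypusine genes had 2 higher and none lower among untreated libraries, with Dhps, the enzyme that starts hypusine on eIF5A, at 0.67, and 2 higher and 1 lower after LPS. With equal totals the LPS-treated counts moved to 8 and 2 (eIF2 phosphorylation), 12 and 3 (mTOR and MNK), 9 and 1 (cap and poly(A) partners), 3 and 1 (recycling), 6 and 0 (elongation) and 3 and 0 (hypusine).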

How the data were processed

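RNA-seq of 10 mouse bone marrow macrophage libraries was used, 3 LPS-treated and 3 untreated resident and 2 LPS-treated and 2 untreated BMDM. RNA was taken with a NucleoSpin RNA II kit and libraries were made with NEBNext Ultra RNA, per the labels' protocols. Reads were aligned with HISAT 0.1.7 to mm10, per the submitters' processing notes; no read counter or gene annotation is given in the sources used here. The deposited values are a normalized signal: in each library they are, within 0.02, whole multiples of 1 step (100% of the low values examined), that is gene reads divided by 1 factor, with a floor of 1, and no step of the authors beyond this is stated. The steps gave back 27.1 to 37.7 M reads per library.

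From these values log2(value + 1) was fitted with limma 3.58.1 (R 4.3.3; variance trend on the mean; all 10 libraries in 4 groups, 6 residual degrees of freedom) for 13755 of 13809 genes with 10 or more in at least 2 libraries; 54 were left out. Log2 changes are on that scale, and changes given as a fold are ratios of group means of the deposited values. The 5 contrasts were adjusted by Benjamini-Hochberg over all genes tested, and 0.05 was the threshold. The method was run on simulated data, but no outcome of that run is given here, so the results do not rest on it. Alternatives changed the pseudocount, filter, scaling, moderation, libraries and Ddx3y-bearing libraries, and voom was run on recovered reads. Genome positions and transcripts are from GENCODE on GRCm38, promoter windows from RefSeq (GRCm38.p6). The genes, the lists by role, pathway and cell marker, the tests and the 4 ratios were chosen with earlier results of these data known. The genes given with every library were, in each comparison, the called ones with the 4 largest rises and 4 largest falls (mean of 20 or more in the higher group), and of the pathway lists up to 3 called rises and 3 falls; others named were chosen after their values were seen. Tables were made with Python 3.11.15, pandas 2.3.3 and matplotlib 3.10.9.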

Additional observations from a re-analysis of the deposited data

Results flagged for a closer look

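By limma's test of the difference itself, the LPS response differed between resident cells and BMDM in 20 of the 48 genes. That share, 41.7%, stood beside 41.8% of all genes tested. Values are log2 differences, response in resident cells minus response in BMDM. On the deposited scale Eif6 (-1.25), Eif1a (-1.14), Eif4e3 (-1.12) and Eif4g2 (-1.02) had a larger rise in BMDM than change in resident cells. These calls were made under all 4 scalings and in all 22 other settings, but the sizes shrank. With quantile normalization they were -0.69, -0.49, -1.08 and -0.39 in that order of genes. With equal totals they were -0.76, -0.66, -0.64 and -0.54. The recomputed median-ratio factors gave nearly the deposited values.

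On the deposited scale the difference was also negative for Eif4e (-0.76), Eif3c (-0.66), Eif2s2 (-0.63), Eif5b (-0.52), Eif2s1 (-0.49), Eif3j1 (-0.43), Eif5a (-0.39), Eif2a (-0.39), Eif3j2 (-0.37), Eif4e2 (-0.37), Eif4enif1 (-0.35) and Eif3e (-0.31). Each of these 12 lost the call or turned its sign with quantile normalization or equal totals. Positive differences were found for Eif4ebp2 (0.93), Eif4b (0.55), Eif4a1 (0.47) and Eif4a2 (0.27), which fell in BMDM, and these 4 differences were called under all 4 scalings. With the deposited scaling none of the 4 genes was called in resident cells, but equal totals and a term for the libraries with Ddx3y reads each called Eif4ebp2 and Eif4b lower there, and quantile normalization called Eif4b lower. Of them, Eif4ebp2 was called in all 22 other settings, Eif4b in 21, Eif4a1 in 17 and Eif4a2 in 12. The marker sums of other marrow cells differed between the origins as given above, and their part in these differences was not tested.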

How the results depend on the processing

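Quantile normalization and equal library totals turned the sign of many changes. The deposited factors left LPS-treated BMDM with larger totals than untreated BMDM, and the median change of all genes there was -0.04 as deposited, -0.20 with quantile normalization and -0.64 with equal totals. For LPS-treated against untreated BMDM, equal totals turned the sign of Eif1ax (-0.15), Eif2a (-0.25), Eif2b2 (-0.41), Eif2b5 (-0.43), Eif3d (-0.32), Eif3e (-0.17), Eif3j1 (-0.20), Eif3j2 (-0.25), Eif4a3 (-0.41), Eif4e2 (-0.23), Eif4enif1 (-0.088), Eif4g1 (-0.29), Eif4h (-0.36), Eif5 (-0.49), Eif5a (-0.30) and Eif5b (-0.092). There, quantile normalization turned the sign of Eif1 (-0.39), Eif2s1 (-0.062), Eif3c (-0.026), Eif3d (-0.34), Eif3e (-0.26), Eif4a3 (-0.29), Eif4e2 (-0.11), Eif4g1 (-0.56), Eif4h (-0.60), Eif5 (-0.69), Eif5a (-0.52), Eif5b (-0.19) and Rps6ka3 (-0.11). For untreated resident cells against untreated BMDM, quantile normalization turned the sign of Eif3d (-0.12), Eif4a2 (-0.21), Eif4g1 (-0.19) and Eif4h (-0.12). For LPS-treated resident cells against LPS-treated BMDM, equal totals turned the sign of Eif1ax (0.12), Eif3b (0.083), Eif3h (0.017) and Eif5a (0.066). There, quantile normalization turned the sign of Eif3b (0.060) and Eif5a (0.078). For the difference of the LPS responses, equal totals turned the sign of Eif2a (0.10), Eif3e (0.18), Eif3j1 (0.056), Eif3j2 (0.12), Eif4e2 (0.12), Eif4enif1 (0.14) and Eif5a (0.094). There, quantile normalization turned the sign of Eif2s1 (0.16), Eif3c (0.026), Eif3e (0.33), Eif4e2 (0.089), Eif5a (0.27) and Eif5b (0.11).
These lists hold genes called on the deposited scale and a few others named in the text. Further genes without a call on that scale turned too, in BMDM among them Eif3b, Eif3g, Eif3h and Eif3i, which were called lower in both other fits. Eif3m in BMDM (-0.35 with equal totals and -0.26 with quantile normalization) turned too, as did, without a call in either fit, Eif1 (-0.14 with equal totals) and Eif2b5 (-0.050 with quantile normalization) in BMDM and Eif4g2 in resident cells (-0.083 with quantile normalization). In resident cells the count of called genes, 1 on the deposited scale, was 2 with quantile normalization, 6 with equal totals, 0 without the variance trend and 0 with only the groups compared. It was 10 with a term for the libraries with Ddx3y reads, 7 without these libraries, and 0 to 6 when 1 library was left out. For the difference of the responses, leaving out 1 library gave 10 to 21 calls. Leaving out 1 library gave 20 to 32 calls in BMDM, 23 to 33 between untreated and 28 to 38 between LPS-treated origins. Voom on recovered reads, chosen after seeing the data, called 1, 29, 32, 36 and 19 genes in resident cells, in BMDM, between untreated origins, between LPS-treated origins and for the difference, against 1, 27, 31, 36 and 20. The planned edgeR test on recovered reads was not run. With 1 BMDM library left out, the lone library was assumed to vary like the other groups. No paired analysis was made. The labels number the 10 libraries in 1 run, so that no groups share replicate numbers. The numbers used here only name libraries in that order. In resident cells some values followed that order in both groups. Ddx3y was read only in replicate 1 of each. Itga2b had 6128, 15832 and 9460 in LPS-treated resident libraries, against 4827, 14803 and 9465 in untreated ones. Whether these libraries pair was not tested, and any spread that pairs share was left in the tests. The cause of each change of sign beyond the scaling itself was not tested. With 2 libraries per BMDM group and unknown origin of replicates, the tests hold for these libraries.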
